A study of Rattus norvegicus with 6 samples.

Results

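The antioxidant enzymes and thioredoxin system comprised 10 genes fixed by symbol, namely Txn1, Txnrd1, Prdx1, Prdx2, Prdx3, Prdx6, Sod1, Sod2, Cat and Gpx1, measured in rat primary cortical cells. The platform annotation gave 10 probe sets of the 31099 on the array to these genes, and they covered 9 of the 10 members, with 2 probe sets for Txnrd1. The only probe set that listed Prdx1 also listed the gene Prdx1l1, so its value cannot be assigned to either gene and is given apart, outside the counts. There were 3 Math2 arrays, of cells that received an expression vector for Math2, an older name of the neuronal basic helix-loop-helix transcription factor Neurod6, and 3 control arrays, of cells that received a control vector. Cells of both groups were co-transfected with a tag, the low-affinity nerve growth factor receptor truncated on its cytoplasmic side, and were isolated by it 24 h later from a mixed culture of unstated animal age. The labels give neither the vectors' promoters nor the species of the Math2 sequence, and they do not say whether samples came from separate cultures, so that p-values rest on a spread among samples that may be technical only.

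These enzymes remove superoxide and peroxides, by-products of respiration to which neurons are sensitive. Superoxide dismutases turn superoxide into hydrogen peroxide, which catalase, glutathione peroxidases and peroxiredoxins then break down, and thioredoxin, itself recharged by thioredoxin reductase with NADPH, returns the peroxiredoxins to their active form. Several of the genes are known targets of Nrf2 (gene Nfe2l2), the transcription factor of the oxidative stress response, and Neurod6 has been linked to tolerance of oxidative stress in a rat neuronal cell line.

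Values are MAS5 signals, linear intensities that the authors scaled to a common trimmed mean, and signals of different probe sets do not rank genes by transcript amount. Array medians ran from 102 to 120. Every member probe set lay above every array median and passed the filter on dim signals, so no member was dropped. In bulk samples, fewer cells of a type and less RNA per cell cannot be told apart. Hybridization spike-ins, added in fixed amounts, had geometric mean signals of 6773, 4044 and 3875 on Math2 arrays 1, 2 and 3, against 2476, 1893 and 2566 on control arrays 1, 2 and 3, without overlap (exact permutation p = 0.1, the smallest that 3 against 3 arrays allow). The Neurod6 probe set measured 312, 167 and 1546 on Math2 arrays 1, 2 and 3, against 386, 207 and 973 on control arrays 1, 2 and 3, and since it may lie outside the transfected sequence, it checks nothing about the labels.

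The comparison asked whether Math2 cells had other levels of these transcripts than control cells. Txn1 showed the largest difference, 1.56-fold higher on the Math2 arrays, followed by Gpx1, Sod1 and Prdx2 on the higher side and Sod2 on the lower side, and none of these differences passed the test. Of 10 member probe sets, limma called 0 higher and 0 lower at an adjusted p under 0.05, as for all 18625 probe sets tested (0% called in either direction). With the replicate number of the titles as a block, limma again called 0 members, against 0.0161% of all probe sets called higher and 0% called lower. At an unadjusted limma p under 0.05, 1 member probe set (Txn1) lay without the block, against 3.19% of all probe sets, and 2 (Txn1 and Gpx1) lay with it, against 7.7% of all. By sign 5 lay above 0 and 5 below, where 45.7% of all tested probe sets lay above and 54.3% below. The median log2 difference of the 10 was 0.032 (0.0089 to 0.16 without single arrays), and that of all tested probe sets was -0.031.

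**Figure D1:**
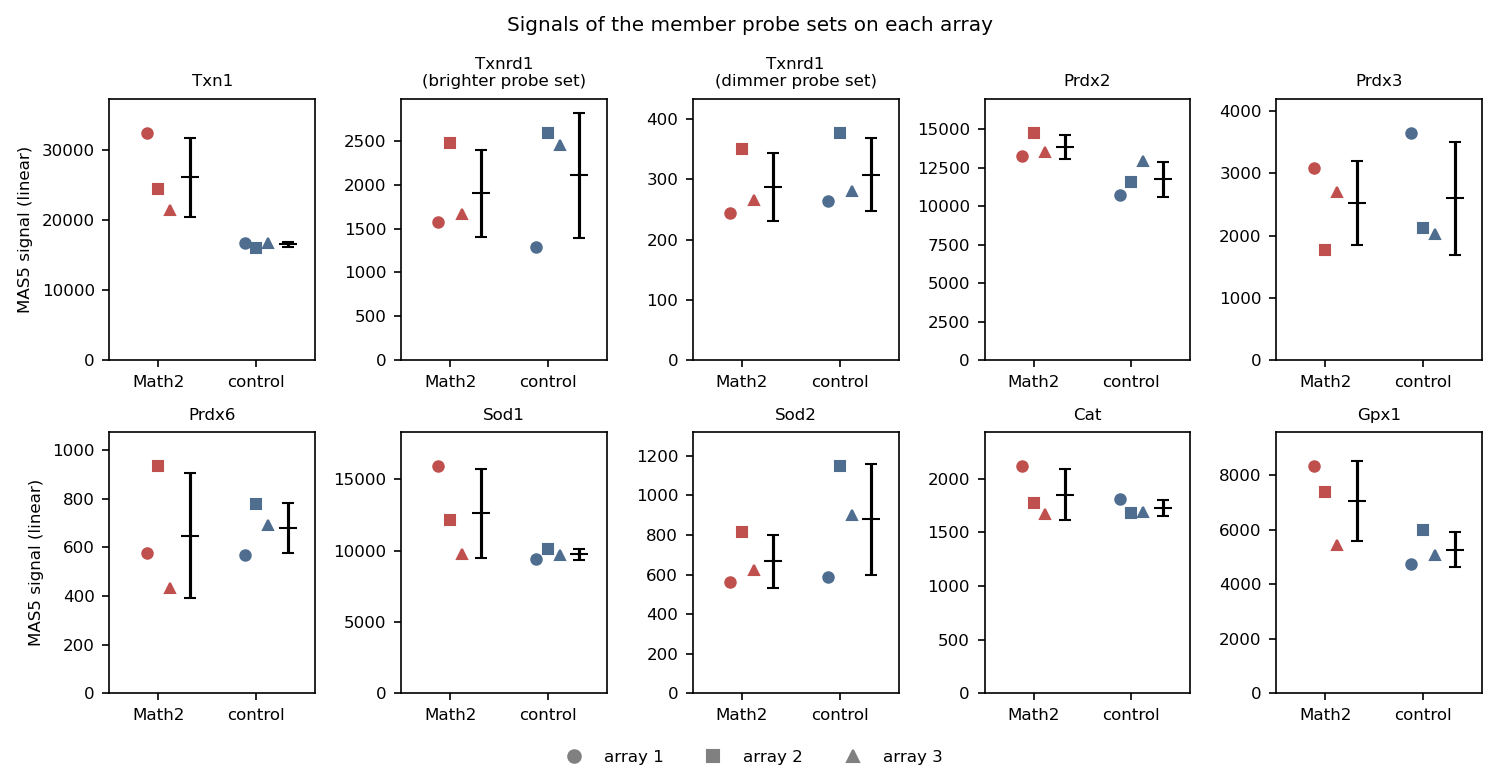
Signals (linear MAS5 units, each axis from 0) of the 10 member probe sets on Math2 arrays (red, left) and control arrays (blue, right), with the marker shape giving the array number and bars the mean and SD of 3 arrays. Only for Txn1 and Prdx2 do all Math2 arrays lie above all control arrays, and in Txnrd1, Prdx6 and Sod2 array 2 is the highest in both groups.

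The bases before the annotated starts of 3 members are shown because Txn1 had the largest difference and because Txnrd1 and Sod2 hold the core of the antioxidant response element, the site Nrf2 is known to bind. Each is the 250 bases before a RefSeq start on build GRCr8, read 5′ to 3′ in the direction of the gene, and capitals mark matches to the core TGACNNNGC on either strand, which reads GCNNNGTCA in the printed direction where the match is on the other strand. Txn1 (chr5:77519686-77519935, minus strand) has 0 matches, and Txnrd1 (chr7:22755905-22756154, minus strand, 1 of its 2 listed starts) and Sod2 (chr1:50050169-50050418, minus strand) have 1 each.
Txn1: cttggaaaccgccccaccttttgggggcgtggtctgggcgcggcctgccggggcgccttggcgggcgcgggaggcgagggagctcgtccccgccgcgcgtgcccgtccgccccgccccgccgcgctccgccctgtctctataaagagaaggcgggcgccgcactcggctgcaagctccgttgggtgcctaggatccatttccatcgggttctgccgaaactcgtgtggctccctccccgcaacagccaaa
Txnrd1: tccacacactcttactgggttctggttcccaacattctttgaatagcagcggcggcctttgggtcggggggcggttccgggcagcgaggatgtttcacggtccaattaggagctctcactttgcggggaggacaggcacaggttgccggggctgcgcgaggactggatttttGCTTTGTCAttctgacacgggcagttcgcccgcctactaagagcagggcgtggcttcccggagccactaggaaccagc
Sod2: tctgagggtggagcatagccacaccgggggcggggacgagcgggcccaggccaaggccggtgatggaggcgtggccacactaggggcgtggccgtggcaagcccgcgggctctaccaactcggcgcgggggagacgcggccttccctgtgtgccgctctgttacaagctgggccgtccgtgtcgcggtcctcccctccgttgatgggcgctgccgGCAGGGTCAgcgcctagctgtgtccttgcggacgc
The reference table held 10 starts for 9 members and none for Prdx6. The core was found in 3 of these 10 windows, the third being that of Prdx1, and in 10.1% of all 33465 windows of the same length. The E-box CANNTG, the general letters that basic helix-loop-helix factors bind, was found in 2 of the 10, Prdx3 with 1 match and the other Txnrd1 start with 4, and in 65.5% of all windows. The narrower E-box CAGATG was in 0 of the 10 and in 14% of all windows. The members' windows held 42% to 71.6% G and C, with a median of 61.6%, where the median over all windows was 51.2%. A match is a description of the letters and says nothing about binding.

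Txn1 encodes thioredoxin, the small protein that reduces disulfides and serves the peroxiredoxins. Its signals were 32402, 24384 and 21372 on Math2 arrays 1, 2 and 3, against 16739, 16063 and 16684 on control arrays 1, 2 and 3. The groups did not overlap, and array 1 of the Math2 group stood highest. The means were 26053 ± 5701 in Math2 cells and 16495 ± 375 in control cells (SD, n = 3 each), a log2 difference of 0.64 (SE 0.177, 95% interval 0.24 to 1.03). This missed the threshold (limma adjusted p = 1.00, and 0.272 with the replicate block). The log2 difference was 0.95, 0.60 and 0.36 in the pairs of like number 1, 2 and 3. Without Math2 array 1 it was 0.47.

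The Txn1 probe set was the 19th brightest of the 18625 tested. Over bins of brightness, numbered from dim to bright, the median log2 difference was 0.017 in bin 1 and lowest in bin 13, at -0.10. From there it rose, with small breaks, to 0.035 in bin 19, the brightest bin of the dimmer 95% of probe sets. It was higher again in the brightest 5%, at 0.12 in the bin just under the brightest 1%. The brightest 1%, 187 probe sets that include Txn1 and Prdx2, lay at a median of 0.43 on the log2 difference scale, and 58.8% of them had no overlap in the higher direction, against 3.7% of all tested probe sets. After quantile normalization, which gives every array the same distribution of signals, the Txn1 signals were 21571, 20518 and 22508 on Math2 arrays 1, 2 and 3, against 21571, 20799 and 20518 on control arrays 1, 2 and 3. The groups then overlapped, and the log2 difference was 0.038 (95% interval -0.19 to 0.27; limma adjusted p = 1.00). For so bright a probe set this scaling assigns 1 of a few top values common to all arrays, such as 21571 on array 1 of both groups. A change in Txn1 could therefore hardly show after it. Cyclic loess, a milder correction for brightness chosen after these values were seen, left a log2 difference of 0.37 (95% interval 0.09 to 0.65; limma adjusted p = 1.00), with a median of 0.21 for the brightest 1%. The spike-ins were higher on the same arrays, and their part in the Txn1 difference was not tested.

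**Figure D2:**
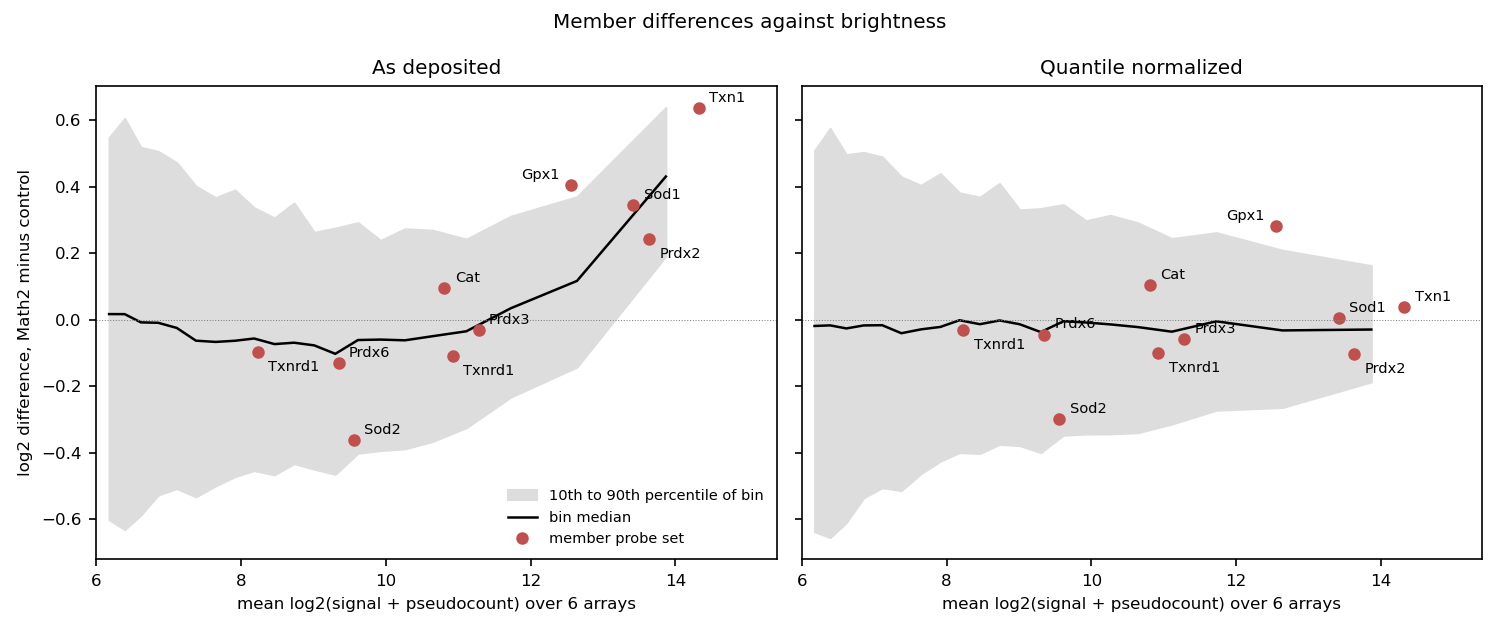
Log2 difference of Math2 minus control arrays (vertical) against the mean log2 signal over 6 arrays (horizontal) for the member probe sets (red points), with the median (line) and the 10th to 90th percentile (grey) of all tested probe sets in bins of brightness, as deposited (left) and quantile normalized (right). As deposited, the bin median climbs to 0.43 in the brightest bin, which holds Txn1 (0.64) and Prdx2 (0.24). It is 0.12 in the bin before, which holds Sod1 (0.34) and Gpx1 (0.40). After quantile normalization Txn1, Sod1 and Prdx2 lie at 0.038, 0.0058 and -0.10, and Gpx1 at 0.28.

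Txnrd1 encodes the cytosolic selenoenzyme that recharges thioredoxin, and it had a difference far smaller than its spread. Its brighter probe set measured 1575, 2478 and 1665 on Math2 arrays 1, 2 and 3, against 1286, 2592 and 2450 on control arrays 1, 2 and 3. The groups overlapped fully, with a log2 difference of -0.11 (SE 0.311, 95% interval -0.80 to 0.58; limma adjusted p = 1.00). The dimmer one measured 245, 350 and 265 on Math2 arrays 1, 2 and 3, against 265, 377 and 281 on control arrays 1, 2 and 3. Both probe sets were highest on array 2 of each group, and the dimmer one differed by -0.097 on the log2 scale (SE 0.3; adjusted p = 1.00 in limma), lower in 3 of 3 pairs by 0.11, 0.10 and 0.079 on the log2 scale. For both probe sets the sign changed when single arrays were left out.

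The peroxiredoxins, which break down hydrogen peroxide and organic peroxides, had no difference that passed the test. Prdx2, a cytosolic peroxiredoxin that neurons express strongly, had signals of 13275, 14744 and 13520 on Math2 arrays 1, 2 and 3, against 10703, 11572 and 12918 on control arrays 1, 2 and 3. The groups did not overlap, the lowest Math2 array lying just above the highest control array, and the means were 13847 ± 787 and 11731 ± 1116 (SD, n = 3 each). The log2 difference was 0.24 (SE 0.161, 95% interval -0.11 to 0.60; limma adjusted p = 1.00), and it turned to -0.10 with quantile normalization, where the groups overlapped. Txn1 and Prdx2 were the 2 member probe sets without overlap in the higher direction, and 0 were without overlap in the lower direction, against 3.7% and 4.3% of all tested probe sets. With quantile normalization 0 of the 10 lacked overlap either way, against 3.02% of all probe sets in the higher and 4% in the lower direction.

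Prdx3, the peroxiredoxin of mitochondria, measured 3087, 1775 and 2697 on Math2 arrays 1, 2 and 3, against 3651, 2126 and 2030 on control arrays 1, 2 and 3. Array 1 was the highest in each group and the log2 difference was -0.031 (SE 0.296, 95% interval -0.69 to 0.63; limma adjusted p = 1.00), with a sign that turned on single arrays. Prdx6, which also has phospholipase activity and uses glutathione rather than thioredoxin, measured 575, 932 and 434 on Math2 arrays 1, 2 and 3, against 570, 776 and 692 on control arrays 1, 2 and 3. The Math2 arrays spanned the whole range of the control arrays, and the log2 difference was -0.13 (SE 0.319, 95% interval -0.84 to 0.58; limma adjusted p = 1.00). It turned to 0.12 without Math2 array 3. The probe set shared by Prdx1 and Prdx1l1 measured 13240, 12574 and 9472 on Math2 arrays 1, 2 and 3, against 9441, 11236 and 10205 on control arrays 1, 2 and 3. Its groups overlapped, and its log2 difference of 0.18 (SE 0.185, limma adjusted p = 1.00) became -0.14 with quantile normalization.

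Superoxide dismutases gave values on opposite sides of 0. Sod1, the copper and zinc enzyme of the cytosol, measured 15901, 12146 and 9749 on Math2 arrays 1, 2 and 3, against 9380, 10141 and 9667 on control arrays 1, 2 and 3. Math2 arrays 1 and 2 lay above all control arrays while Math2 array 3 lay among them. The means were 12598 ± 3101 and 9730 ± 384 (SD, n = 3 each), a log2 difference of 0.34 (SE 0.2, 95% interval -0.10 to 0.79; limma adjusted p = 1.00, and 0.674 with the replicate block). The difference in the pair of number 3 was 0.012, without Math2 array 1 the difference was 0.16, and with quantile normalization it was 0.0058.

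Sod2, the manganese enzyme of mitochondria, measured 562, 816 and 620 on Math2 arrays 1, 2 and 3, against 589, 1146 and 902 on control arrays 1, 2 and 3. It was lower in 3 of 3 pairs, by 0.066, 0.49 and 0.54 on the log2 scale, but the groups overlapped because control array 1 was low. The means were 666 ± 133 and 879 ± 280 (SD, n = 3 each), a log2 difference of -0.36 (SE 0.306, 95% interval -1.04 to 0.32; limma adjusted p = 1.00, and 0.755 with the replicate block). Sod2 was the member lowest on the Math2 arrays relative to control, and its difference kept its sign with quantile normalization (-0.30), with cyclic loess (-0.28) and without any single array (-0.62 to -0.15).

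Enzymes that break down hydrogen peroxide without thioredoxin had no difference that passed the test either. Cat, catalase of the peroxisomes, measured 2117, 1775 and 1669 on Math2 arrays 1, 2 and 3, against 1810, 1683 and 1691 on control arrays 1, 2 and 3. Math2 array 1 lay above the control range, array 2 within it and array 3 just below it, and the log2 difference was 0.094 (SE 0.216, 95% interval -0.38 to 0.57; limma adjusted p = 1.00). Gpx1, the cytosolic glutathione peroxidase and a selenoenzyme, measured 8328, 7391 and 5430 on Math2 arrays 1, 2 and 3, against 4734, 5979 and 5084 on control arrays 1, 2 and 3. It was higher in 3 of 3 pairs, by log2 differences of 0.81, 0.31 and 0.095, with overlap between Math2 array 3 and control array 2. The means were 7049 ± 1479 and 5266 ± 642 (SD, n = 3 each), a log2 difference of 0.40 (SE 0.213, 95% interval -0.07 to 0.88; limma adjusted p = 1.00, and 0.634 with the replicate block). Of the 4 bright members it changed least with the scaling, at 0.28 with quantile normalization and 0.29 with cyclic loess, where the interval of the first was -0.14 to 0.70.

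**Figure D3:**
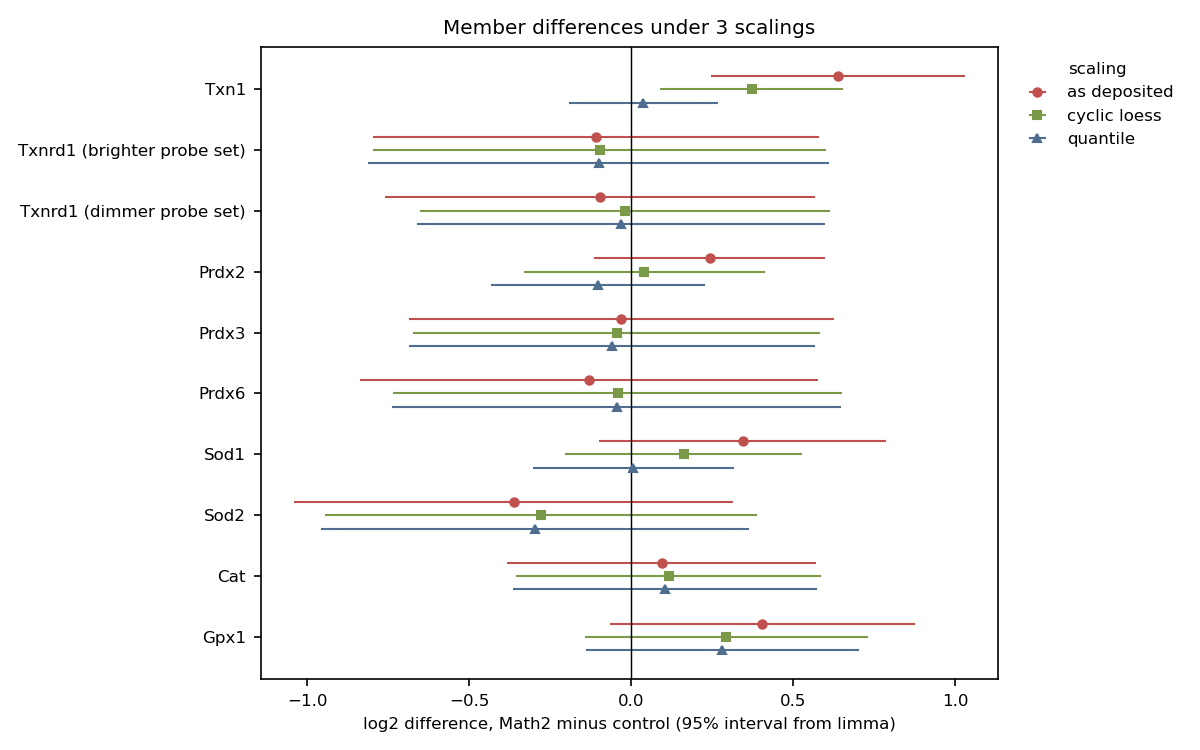
Log2 difference of Math2 minus control arrays (horizontal) with its 95% interval from limma for each member probe set (rows), as deposited (red circles), after cyclic loess (green squares) and after quantile normalization (blue triangles). The Txn1 interval excludes 0 as deposited (0.24 to 1.03) and after cyclic loess (0.09 to 0.65) but not after quantile normalization (-0.19 to 0.27), and every other member's interval includes 0 under all 3 scalings.

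Higher members by pair were Txn1, Prdx2, Sod1 and Gpx1, each above control in 3 of 3 pairs of like number, and 2 probe sets, of Sod2 and Txnrd1 (the dimmer), were below control in 3 of 3. Over all tested probe sets 13.1% were higher and 15.2% lower in 3 of 3 pairs. The 4 higher members are the only members among the brightest 5% of probe sets, where the median log2 difference was 0.17. Txn1, Sod1 and Gpx1 were highest on Math2 array 1, which also had the strongest spike-ins, while Prdx2 was highest on Math2 array 2. Among the control arrays, Sod1 and Gpx1 were highest on array 2, which had the weakest spike-ins. There Txn1 was highest on array 1, and Prdx2 on array 3, which had the strongest spike-ins of the control arrays. The part of brightness and spike-ins in these members' differences was not tested. The summed signal of the 9 measured members, each by its brightest probe set, was 77822, 66442 and 57156 on Math2 arrays 1, 2 and 3, against 49463, 52079 and 52119 on control arrays 1, 2 and 3. Txn1 made up much of that sum, so this is a description of the bright members.

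Arrays of like number shared part of the variation across all probe sets, with correlations of 0.326, 0.476 and 0.372 for numbers 1, 2 and 3. In 7 of 10 member probe sets the same array number was highest in both groups. It was number 2 for Txnrd1 (both probe sets), Prdx6 and Sod2 and number 1 for Txn1, Prdx3 and Cat. The share of all probe sets with this pattern was not computed, so the count cannot be called particular to the members. In 6 of 10 the SD of the 3 number means exceeded the size of the group difference, for example 0.42 against -0.11 for the brighter Txnrd1 probe set and 0.40 against -0.031 for Prdx3 on the log2 scale. Independent arrays would often give the same, since number means vary among them too, so this count does not measure sharing. Cell type markers also differed by number. The summed signal of 12 pan-neuronal markers was 18979, 16296 and 36594 on Math2 arrays 1, 2 and 3, against 21783, 15849 and 28294 on control arrays 1, 2 and 3, highest on array 3 and lowest on array 2 of each group. For 9 astrocyte markers the sums were 39254, 35931 and 24199 on Math2 arrays 1, 2 and 3, against 34094, 35451 and 27130 on control arrays 1, 2 and 3, lowest on array 3 of each group. Slc1a3 and Gja1 made up much of these sums. Both of them, Aqp4 and Fgfr3 were lowest on array 3 of each group. The other astrocyte markers were not, and Aldoc was highest on control array 3. The neuronal markers Syt1 and Nefl and the astrocyte marker Slc1a2 lay below every array median and did not pass the filter. The ratio of signal near a transcript's end to that near its start varied as well. On Math2 arrays 1, 2 and 3 it was 8.48, 5.997 and 8.14 for Gapdh and 14.3, 17.1 and 18.4 for Actb. On control arrays 1, 2 and 3 it was 13.8, 3.74 and 5.04 for Gapdh and 22.7, 10.996 and 13.5 for Actb. Array 2 was lowest in both groups for Gapdh but only among control arrays for Actb, and control array 1 was highest for both. The part of these cell types and ratios in the members' differences was not tested. All 10 microglial and macrophage markers lay below every array median on average, and limma called 0 markers of any cell type list, with or without the block.

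Some markers differed by group as well, in both directions. Of 34 tested markers in 6 cell type lists, 1 was without overlap on the higher side and 4 on the lower side, against 3.7% and 4.3% of all tested probe sets, and they are named here after their values were seen. Fgfr3, an astrocyte marker, measured 3459, 3494 and 3315 on Math2 arrays 1, 2 and 3, against 5355, 5328 and 4637 on control arrays 1, 2 and 3, a log2 difference of -0.57 (limma adjusted p = 0.410 with the replicate block). Pdgfrb, on the fibroblast and meningeal list and also a marker of pericytes, measured 147, 159 and 293 on Math2 arrays 1, 2 and 3, against 62.9, 37.2 and 54.8 on control arrays 1, 2 and 3, a log2 difference of 1.77 (limma adjusted p = 0.198 with the replicate block). Fbn1 at -0.45 and Col1a1 at -0.25, of the same list, and Tek at -0.40, of the endothelial list, were lower without overlap, and after quantile normalization Fgfr3, Pdgfrb and Fbn1 still had none. Over whole lists the groups overlapped in summed signal, at 6275 to 7908 on the Math2 arrays against 6953 to 9058 on the control arrays for 10 fibroblast and meningeal markers, 446 to 843 against 528 to 995 for 7 endothelial markers, 9004 to 12642 against 8333 to 13364 for 9 oligodendrocyte lineage markers and 216 to 311 against 310 to 381 for 10 microglial markers. The microglial sums overlapped only by Math2 array 1 (311) against control array 2 (310). Cd68 and Tyrobp of that list, too dim to pass the filter, were lower without overlap as deposited and after quantile normalization. All other microglial markers overlapped under both scalings. The part of these markers in the members' differences was not tested.

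Other genes of the same chemistry were read from 6 lists. Txnl1, a thioredoxin-like protein, and Glrx, glutaredoxin, were the largest on the higher side among 18 other thioredoxin, peroxiredoxin and glutaredoxin genes, of which 10 were higher, 8 lower and 0 called by limma with or without the block. Txnl1 measured 18730, 13349 and 12351 on Math2 arrays 1, 2 and 3, against 12082, 9647 and 9387 on control arrays 1, 2 and 3, a log2 difference of 0.50 that was 0.14 with quantile normalization. Its probe set ranked 146 in brightness, within the brightest 1% whose median log2 difference was 0.43. Glrx measured 2215, 1416 and 3777 on Math2 arrays 1, 2 and 3, against 2006, 598 and 1601 on control arrays 1, 2 and 3, and its log2 difference of 0.87 (SE 0.462) was above 0 in 3 of 3 pairs while the groups overlapped. Without control array 2 the Glrx difference was 0.35, and without control array 1 it was 1.21. Prdx4, the peroxiredoxin of the endoplasmic reticulum, had 0.36, and Srxn1, sulfiredoxin, which repairs overoxidized peroxiredoxins, had -0.51. The list's median was 0.063, and it was -0.11 without Math2 array 2.

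Of 22 glutathione genes 19 were tested, 5 of them higher, 14 lower and 0 called, at a median log2 difference of -0.086 that turned to 0.030 without control array 2. Gstm1, a glutathione transferase, measured 258, 244 and 208 on Math2 arrays 1, 2 and 3, against 347, 567 and 432 on control arrays 1, 2 and 3. All Math2 arrays lay below all control arrays, also after quantile normalization, and Gstm1 differed by -0.88 on the log2 scale (SE 0.297; adjusted p = 1.00 in limma, and 0.421 with the replicate block). Slc3a2, the heavy chain of the cystine transporter, measured 11943, 9707 and 10439 on Math2 arrays 1, 2 and 3, against 8362, 7094 and 7623 on control arrays 1, 2 and 3. It also had no overlap under either scaling, with a log2 difference of 0.47 as deposited and 0.25 with quantile normalization (limma adjusted p = 0.473 with the replicate block). Gclc, the catalytic subunit of the enzyme that limits glutathione synthesis, had -0.59 and was lower in 3 of 3 pairs, and Gsta4 had -0.36. Without overlap were 2 higher and 1 lower of the 19, against 3.7% and 4.3% of all probe sets.

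Nrf2 regulators and target genes, a list that shares Gclc, Gclm and Slc7a11 with the glutathione list and Srxn1 with the thioredoxin list, had a median log2 difference of -0.14 over 18 tested of 21, which turned to 0.055 without control array 2. Of these 6 were higher, 12 lower and 0 called. At an unadjusted limma p under 0.05, 0 lay without the block and 4 of 18 with it (against 3.19% and 7.7% of all probe sets), namely Gclc, Srxn1, Nqo1 and Hmox1, the last named after its values were seen. All 4 were on the lower side, with log2 differences of -0.59, -0.51, -0.51 and -0.51, and their smallest adjusted p with the replicate block in limma was 0.502. By the same measure with the block, 3 of 18 other thioredoxin genes (Txnl1, Glrx and Srxn1) and 3 of 19 glutathione genes (Gstm1, Slc3a2 and Gclc) lay past it, Gclc and Srxn1 being counted in both places. Without Math2 array 3 the log2 differences were -0.16 for Nqo1 and -0.062 for Hmox1, and without Math2 array 1 that of Srxn1 was -0.30. Nqo1, a quinone reductase, measured 2534, 2714 and 1267 on Math2 arrays 1, 2 and 3, against 2631, 3495 and 2757 on control arrays 1, 2 and 3, so that the groups overlapped while each pair was lower. Hmox1, heme oxygenase, measured 2316, 3975 and 1201 on Math2 arrays 1, 2 and 3, against 2600, 4785 and 2555 on control arrays 1, 2 and 3, with the same order of arrays in both groups. Esd, esterase D, had 0.34 on the higher side.

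NADPH supply, on which thioredoxin reductase and glutathione reductase draw, had a median of -0.051 (0.046 without Math2 array 3) over 10 tested of 11, with 4 higher, 6 lower and 0 called. Taldo1, transaldolase, measured 4110, 4180 and 3435 on Math2 arrays 1, 2 and 3, against 2912, 3208 and 3227 on control arrays 1, 2 and 3, without overlap and with a log2 difference of 0.32. Tkt, transketolase, had -0.44, Pgd -0.71 and Me1 -0.23, each lower in 3 of 3 pairs with overlap between the groups. Without Math2 array 3 these were -0.27 for Tkt, -0.099 for Pgd and -0.071 for Me1. Other superoxide and metal handling genes had a median of 0.042 over 15 tested of 17 (8 higher, 7 lower, 0 called), with Ppargc1a, a coactivator of mitochondrial biogenesis, at -0.62, Sesn1 at -0.51, Ucp2 at -0.47 and the copper chaperone Atox1 at 0.33. Of 15 genes of enzymes that produce superoxide or peroxide, 5 passed the filter, among them Maoa at -0.51, Ero1a at -0.46, Nox1 at -0.14 and Cyba at 0.14, with a median of -0.14 and 0 called.

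**Figure D4:**
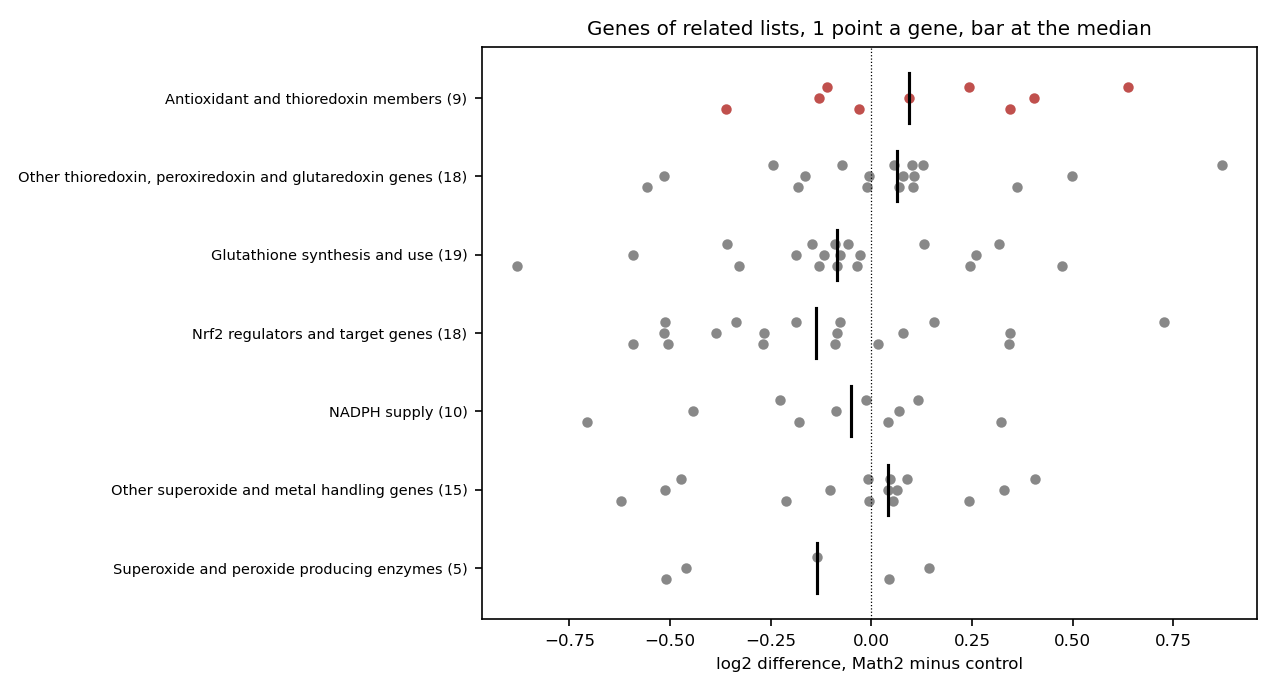
Log2 difference of Math2 minus control arrays (horizontal) for every tested gene of the antioxidant and thioredoxin members (red) and of 6 related lists (grey), each gene by its brightest probe set, with a bar at the list median and the number of genes in brackets. List medians lie between -0.14 and 0.094, and the genes of each list spread to both sides of 0.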

How the data were processed

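RNA of tag-selected rat cortical cells was amplified in a two-cycle labelling from 50 ng and hybridized to Affymetrix Rat Genome 230 2.0 arrays, per the labels' protocols. The deposited values are linear intensities that the authors made with MAS5, per the submitters' processing notes, with version and settings not given in the sources used here. Their mean without the highest and lowest 2% was 500.2 on every array. No detection calls were used here, so whether a dim signal exceeds background is unknown, and 3 arrays a group limit the precision.

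Signals were taken as log2(signal + 7.42), the pseudocount being the 10th percentile, so fold changes of dim probe sets are understated. The 57 control probe sets were left out, and 18625 probe sets at or above the 40th percentile of mean log2 signal (6.07) were tested with limma 3.58.1 in R 4.3.3 (two-sided moderated test from eBayes, its prior variance following intensity), p-values being adjusted by Benjamini and Hochberg over all of them against a threshold of 0.05. On simulated data of 18625 probe sets changes of 2-fold were found in 16% and of 4-fold in 83% of cases, beside 4 false calls. Across probe sets, the deviations of Math2 and control arrays from their group means had correlations of 0.326, 0.476 and 0.372 for like numbers 1, 2 and 3 and at -0.46 to 0.104 for unlike numbers, so the numbers of the titles were taken as pairs, from the data and not from the labels. The fit without this block was the planned one.

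Gene symbols came from the platform annotation, whose 10 member probe sets all matched RefSeq genes of GRCr8 by gene ID with 0 changes; promoter sequences are RefSeq's, matched by symbol. Members and lists were chosen with earlier results of these data known. Named are all member probe sets, Neurod6 and up to 4 genes of each related list with the smallest p, plus any gene called. For lists, a gene was read from its brightest probe set with 1 symbol. Alternatives were the block, quantile normalization, median centring, other pseudocounts (1 and 32) and filters, no intensity trend, each array left out, and cyclic loess, added after the data were seen.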

Additional observations from a re-analysis of the deposited data

How the results depend on the processing

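The count of 0 called members held in every alternative run, with and without the replicate block. The smallest adjusted p of any member over all of them was 0.272, for Txn1 with the block in limma. Over all probe sets, 0 were called in the planned fit (594 at an unadjusted p under 0.05), 3 with the replicate block, 6 with quantile normalization and the block, and 5 with cyclic loess and the block, and 0 without any single array. The block changed no other call given here. Scaling reversed Prdx2 (-0.10 with quantile normalization, with or without the block) and the probe set shared by Prdx1 and Prdx1l1 (-0.14 with quantile normalization and -0.00083 with cyclic loess, each with or without the block). Leaving out single arrays reversed the log2 differences of Txnrd1 (-0.43 to 0.072 for the brighter and -0.25 to 0.055 for the dimmer probe set), Prdx3 (-0.20 to 0.24), Prdx6 (-0.43 to 0.12), Cat (-0.0049 to 0.17), Sesn1 (-1.002 to 0.050), Nox1 (-0.39 to 0.15), Cyba (-0.27 to 0.51) and Neurod6 (-0.88 to 0.69). List medians also turned in sign without single arrays, those of the other thioredoxin (-0.11 to 0.074), glutathione (-0.23 to 0.030), Nrf2 (-0.32 to 0.055), NADPH supply (-0.24 to 0.046) and other superoxide and metal handling genes (-0.12 to 0.11). Of differences that kept their sign, single arrays moved by over 1.5 times those of Txnl1 (0.32 to 0.62), Glrx (0.35 to 1.21), Srxn1 (-0.81 to -0.30), Gsta4 (-0.54 to -0.23), Nqo1 (-0.71 to -0.16), Hmox1 (-0.92 to -0.062), Tkt (-0.58 to -0.27), Pgd (-1.39 to -0.099), Me1 (-0.44 to -0.071), Ucp2 (-0.74 to -0.11), Atox1 (0.12 to 0.60), Maoa (-0.79 to -0.23), Ero1a (-0.63 to -0.21), Sod1 (0.16 to 0.51), Sod2 (-0.62 to -0.15) and the probe set shared by Prdx1 and Prdx1l1 (0.088 to 0.33). Txn1 ran from 0.47 to 0.77 and Gpx1 from 0.27 to 0.58 without single arrays. The cause of these reversals was not tested. Of 577 values of named probe sets under an alternative, 555 kept their sign and their side of the threshold and 22 reversed.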
